A study of Homo sapiens with 12 samples.

Results

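The 10 genes followed here belong to the NF-kappaB system: the 5 subunits RELA, RELB, REL, NFKB1 and NFKB2, the kinase gene MAP3K14, the inhibitors NFKBIA, NFKBIB and NFKBIE, and the IkappaB-like BCL3. The rule takes them by name and uses no measured value, though the set was proposed with earlier results of these data known. They are 10 of the 57500 genes of the deposited count table. Each name had counts under 1 Ensembl gene, and all 10 passed the filter on low counts and were among the 27029 genes tested. The series sequenced RNA of 2 established lines of triple-negative breast cancer, HCC1806 and MDA-MB-468, to ask what loss of PACT does. PACT is the double-stranded RNA binding protein encoded by PRKRA, known as a regulator of the RNA-activated kinase PKR. HCC1806 carried the control guide sgC1 or the guide sgPACT-2 against PRKRA, and MDA-MB-468 carried the control guide sgNTA or the same sgPACT-2, delivered with CRISPR-Cas9. There were 3 libraries in each of the 4 groups, 12 in all, and nothing says that they came from separate cultures, so p-values measure the spread between these libraries, which may be technical. Depletion thus rests on 1 guide, each line has its own control guide, and the labels do not say whether the edited cells were clones or pools, or how long after editing they were harvested.

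NF-kappaB proteins act as dimers on DNA and are held inactive by IkappaB inhibitors until an upstream kinase removes the block. In the canonical arm the IKK complex marks IkappaB proteins for destruction, which frees dimers such as RELA with p50, the product of NFKB1. In the noncanonical arm the kinase NIK, the product of MAP3K14, is kept low by TRAF3, TRAF2 and the cIAP ligases, and its accumulation leads to processing of the NFKB2 product p100 to p52, the partner of RELB. Several members, among them NFKB2, RELB and NFKBIA, are also known targets of NF-kappaB, so that a transcript level alone does not show protein activity.

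The genes lie on 8 chromosomes, and 3 of them are on chromosome 19. In GRCh38 by GENCODE 29, NFKBIB spans 38899700 to 38908893, BCL3 44747705 to 44760044 and RELB 45001430 to 45038198 there, all on the plus strand. NFKB2 is on chromosome 10 (102394110 to 102402529, plus), NFKB1 on chromosome 4 (102501329 to 102617302, plus) and REL on chromosome 2 (60881521 to 60931610, plus). MAP3K14 is on chromosome 17 (45263119 to 45317145, minus), RELA on chromosome 11 (65653596 to 65663094, minus), NFKBIA on chromosome 14 (35401511 to 35404749, minus) and NFKBIE on chromosome 6 (44258166 to 44265788, minus). REL shares 43.3% of its exon bases with the noncoding gene AC010733.2 on the same strand, which the table lists at 0, so the level of REL is uncertain. MAP3K14 shares 12.3% of its exon bases with its antisense gene MAP3K14-AS1. The strand setting of the counting is not known, and reads of that pair cannot be told apart.

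The start regions of the members are shown because kappaB sites are what NF-kappaB dimers bind. RefSeq (GRCh38.p14) windows of 250 bases before to 50 after a start were matched by symbol for 8 members, RELB and NFKBIE not among them, in 13 windows. They were searched on both strands for the 10-base kappaB consensus, and overlapping matches were merged into 1 site. Of these 8 genes, 6 held a match, in 7 of the 13 windows, while 5.91% of all 35116 windows and 7.09% of all 27305 genes with a window held one. The 9 sites follow on the strand of the gene, 30 bases each, with the match in capitals.
NFKB2, chr10:102394462-102394491, plus strand: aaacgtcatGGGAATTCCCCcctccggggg
NFKB2, chr10:102394490-102394519, plus strand: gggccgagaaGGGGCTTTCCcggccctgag
NFKB2, chr10:102395519-102395548, plus strand: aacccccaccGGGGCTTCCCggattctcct
NFKB2, chr10:102395674-102395703, plus strand: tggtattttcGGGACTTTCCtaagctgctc
NFKB1, chr4:102501300-102501329, plus strand: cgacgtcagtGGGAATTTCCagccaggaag
REL, chr2:60881518-60881547, plus strand: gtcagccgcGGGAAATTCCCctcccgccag
NFKBIA, chr14:35404811-35404840, minus strand: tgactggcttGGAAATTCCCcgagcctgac
NFKBIB, chr19:38899932-38899961, plus strand: ggcgtggtgGGGAATTTCCCgcagggcgga
BCL3, chr19:44748700-44748729, plus strand: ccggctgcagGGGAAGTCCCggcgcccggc
No match was found in the windows of RELA and MAP3K14. The sites of NFKB1 and NFKBIA lay outside the GENCODE 29 gene, 49 and 81 bases before the RefSeq start. In NFKB2 the first pair of sites lay in annotated exon, 107 and 78 bases before a start inside the gene, and the other pair lay in intron and at an exon edge, 176 and 21 bases before a further start. The REL and BCL3 sites were exonic and the NFKBIB site intronic. The whole upstream stretch is given for NFKBIA, the classic feedback inhibitor, as its site sits just upstream of the gene.
NFKBIA, chr14:35404750-35404999, minus strand: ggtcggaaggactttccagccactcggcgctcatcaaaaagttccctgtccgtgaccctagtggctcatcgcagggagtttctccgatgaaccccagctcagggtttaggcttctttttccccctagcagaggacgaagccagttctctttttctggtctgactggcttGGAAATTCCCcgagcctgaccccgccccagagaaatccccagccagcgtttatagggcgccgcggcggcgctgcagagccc
A match is a property of the letters and shows no binding. Whether these sites have a part in any change with depletion was not tested.

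The HCC1806 libraries held 18640633 to 24704877 counts and the MDA-MB-468 libraries 34581754 to 44790741. By a chi-square of counts per gene, HCC1806 depleted replicate 1 stood at 38.5 and 67.1 from the other depleted libraries, which were 20.5 from each other; pairs within the other groups lay between 8.71 and 28.4. Without this library the same number of members, 7, was called in HCC1806, where 1792 of 29160 genes tested were called. PRKRA, the targeted gene, fell in HCC1806 from 77.8 ± 5.30 to 36.9 ± 0.774 CPM (CPM, counts-per-million, are counts scaled by TMM to a common library size; mean ± SD, n = 3 in each group throughout). In MDA-MB-468 it stood at 44.7 ± 3.12 and 38.8 ± 3.09 CPM (edgeR adjusted p = 0.958), so the transcript does not by itself show depletion in the MDA-MB-468 libraries labelled with sgPACT-2. Epithelial markers were present in every group, 7 of 7 with counts. Their summed level was 2550 to 3090 CPM in HCC1806 control and 1770 to 1990 CPM in HCC1806 depleted libraries, and 4260 to 4590 and 3830 to 4540 CPM in MDA-MB-468. In bulk samples fewer cells of a type and less RNA per cell cannot be told apart, and the part of this shift in the HCC1806 results was not tested. Leukocyte markers summed to at most 4.17 CPM and endothelial markers to at most 4.02 CPM in any library, fibroblast markers reached 53.1 CPM at most, and CD3E was at 0 in every HCC1806 library. Of the receptors behind the triple-negative label, PGR was at most 0.3 CPM, ESR1 lay between 6.27 and 24.2 CPM and ERBB2 between 124 and 209 CPM, RNA levels that do not set receptor status.

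With PACT depletion, in 1 fit of all 12 libraries, most of the system was higher in HCC1806 and only the noncanonical genes passed in MDA-MB-468. In HCC1806, 7 of the 10 members rose and none fell: RELB, NFKB2, NFKB1, NFKBIA, NFKBIB, NFKBIE and BCL3. The background in that comparison was 2.49% of genes tested called in either direction, 1.16% higher and 1.32% lower (edgeR quasi-likelihood test, Benjamini-Hochberg adjusted p under 0.05). In MDA-MB-468, 3 of the 10 rose and none fell, RELB, NFKB2 and MAP3K14, against 0.170% of genes called, all of those higher. The median log2 fold change of the 10 was 0.75 for HCC1806 and 0.22 for MDA-MB-468, beside medians of 0.01 and -0.01 over all genes tested. The contrast between the lines depends on the fit. With each line fitted alone, 3 members passed in HCC1806 and 4 in MDA-MB-468, NFKB1 among the latter. Of all genes, 0.315% and 1.51% were then called. A test of the difference between the lines passed for RELB only.

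**Figure D1:**
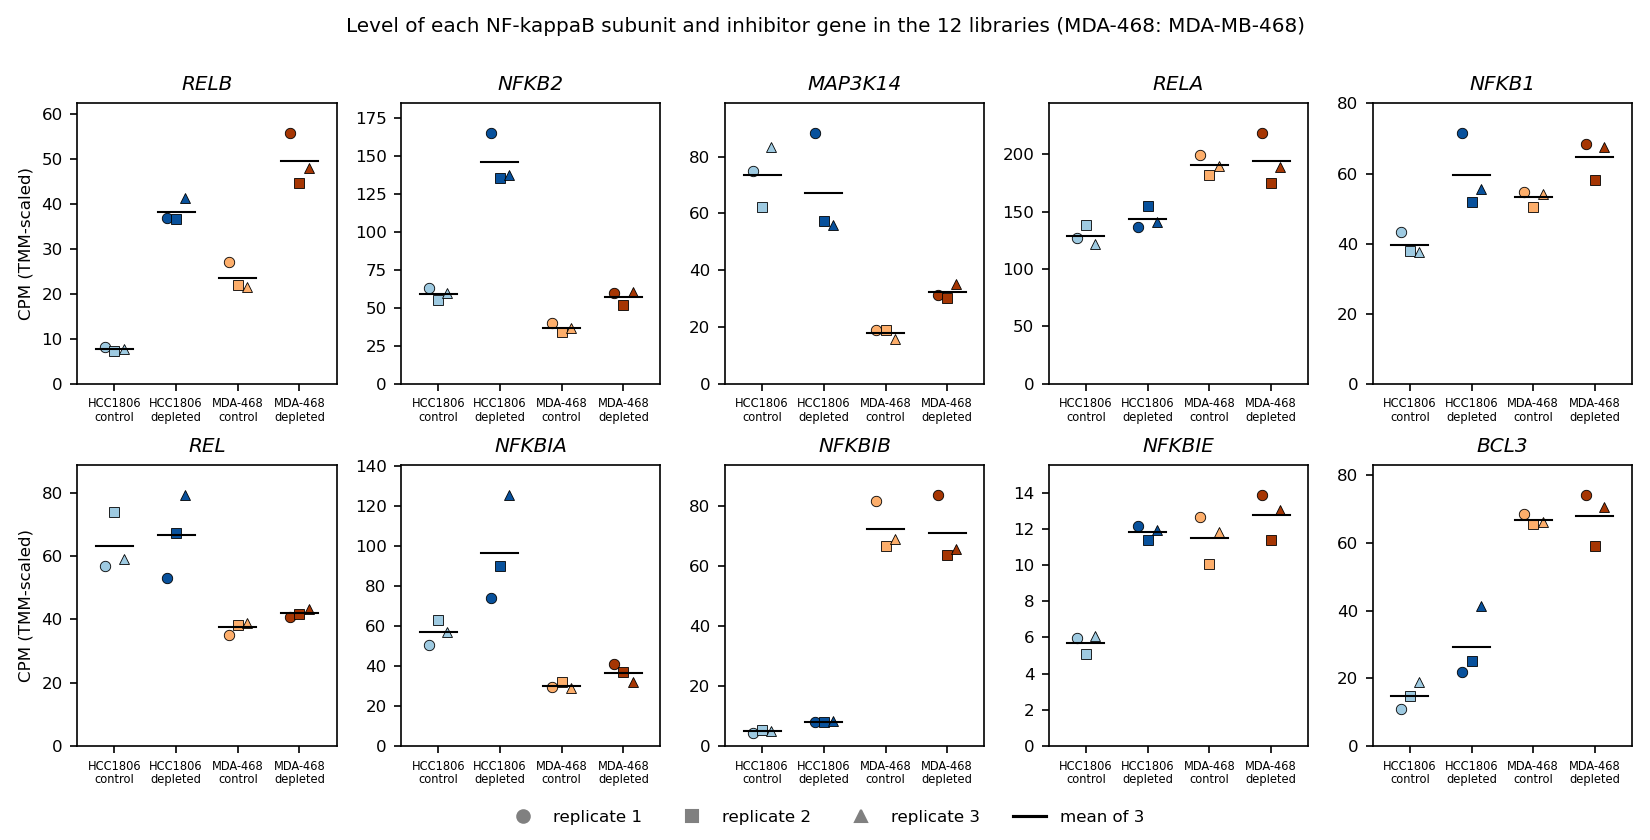
TMM-scaled CPM of each of the 10 genes (1 panel per gene) in the 12 libraries, as points by group, with the group mean as a line. RELB goes from 7.70 to 38.3 CPM in HCC1806 and from 23.6 to 49.4 CPM in MDA-MB-468, with no overlap of the groups, while RELA overlaps in both lines.

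RELB, the DNA-binding partner of p52, changed most of the 10 in each line. Its HCC1806 control libraries held 8.09, 7.30 and 7.71 CPM and the depleted ones 36.9, 36.6 and 41.2 CPM (replicates 1 to 3, in this order here and below). The MDA-MB-468 controls held 27.2, 21.9 and 21.6 CPM and the depleted libraries 55.8, 44.6 and 47.9 CPM. Every depleted library was above every control of its line, and the MDA-MB-468 controls already lay between the HCC1806 control and depleted levels. The log2 fold change was 2.31 in HCC1806 (SE 0.13, edgeR adjusted p = 3.19e-08), a 4.97-fold rise. In MDA-MB-468 it was 1.07 (SE 0.12, adjusted p = 0.000395), a 2.10-fold rise.

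NFKB2 encodes p100, both the precursor of p52 and an inhibitor of RELB. It was read at 63.4, 55.0 and 59.7 CPM in HCC1806 controls and at 165.3, 135.9 and 137.7 CPM after depletion. In MDA-MB-468 the controls held 40.2, 34.4 and 36.5 CPM and the depleted libraries 59.7, 51.9 and 60.6 CPM. The groups did not overlap in either line, and the depleted MDA-MB-468 libraries reached only the level of the HCC1806 controls. NFKB2 rose by 1.30 on the log2 scale in HCC1806 (SE 0.11, edgeR adjusted p = 5.16e-06) and by 0.63 in MDA-MB-468 (SE 0.11, adjusted p = 0.0216). The MDA-MB-468 call was lost when any control of that line or depleted replicate 1 or 3 was left out, with adjusted p of 0.0591 to 0.203 and log2 fold changes of 0.58 to 0.70.

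MAP3K14, which encodes the kinase NIK at the head of the noncanonical arm, rose in MDA-MB-468 and did not pass in HCC1806. The MDA-MB-468 controls held 18.8, 18.9 and 15.7 CPM and the depleted libraries 31.4, 30.3 and 35.1 CPM, with no overlap. Its log2 fold change there was 0.86 (SE 0.16, edgeR adjusted p = 0.0361). In HCC1806 the controls held 74.9, 62.2 and 83.6 CPM and the depleted libraries 88.4, 57.3 and 56.1 CPM. Depleted replicate 1 of HCC1806 was the highest of those 6 and the other depleted libraries the lowest. The log2 fold change was -0.13 (SE 0.16, adjusted p = 0.807), and -0.38 without that library (adjusted p = 0.0803). The MDA-MB-468 call was lost without any 1 of the 6 libraries of that line (adjusted p 0.0874 to 0.27), where the log2 fold change was 0.78 to 0.90. MAP3K14-AS1 had log2 fold changes of 0.05 in HCC1806 and -0.29 in MDA-MB-468 (adjusted p = 0.973 and 1).

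Of the canonical subunits, NFKB1 rose in HCC1806 and RELA and REL passed in neither line. NFKB1, which encodes p105 and its product p50, was read at 43.4, 37.8 and 37.7 CPM in HCC1806 controls and at 71.6, 52.0 and 55.5 CPM after depletion. All 3 depleted libraries were above all 3 controls, replicate 1 furthest. Its log2 fold change was 0.59 (SE 0.12, edgeR adjusted p = 0.0179), with adjusted p of 0.0556 without control replicate 2 and 0.0518 without control replicate 3. In MDA-MB-468 NFKB1 held 54.8, 50.5 and 54.2 CPM in controls and 68.6, 58.0 and 67.6 CPM in depleted libraries. These groups did not overlap either, yet the difference of 0.28 on the log2 scale did not pass (SE 0.12, adjusted p = 0.881). With MDA-MB-468 fitted alone it was 0.30 and passed (adjusted p = 0.034).

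RELA, the main activating subunit of the canonical arm, held 126.8, 138.3 and 121.7 CPM in HCC1806 controls and 136.3, 154.6 and 141.2 CPM in depleted libraries. In MDA-MB-468 it held 199.6, 182.4 and 189.7 CPM in controls and 218.7, 174.8 and 189.0 CPM in depleted libraries. The groups overlapped in both lines, with log2 fold changes of 0.16 (SE 0.10, edgeR adjusted p = 0.542) and 0.03 (SE 0.10, adjusted p = 1). REL, the c-Rel subunit best known from lymphoid cells, held 57.0, 74.0 and 59.1 CPM in HCC1806 controls and 53.3, 67.5 and 79.4 CPM in depleted libraries, which overlapped. In MDA-MB-468 it held 35.2, 38.2 and 39.0 against 40.8, 41.7 and 43.4 CPM. There the groups did not overlap, but the log2 fold change of 0.16 (SE 0.13) did not pass (adjusted p = 1), and in HCC1806 it was 0.08 (SE 0.13, adjusted p = 0.886).

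All 3 inhibitors rose in HCC1806 and none passed in MDA-MB-468. NFKBIA encodes IkappaB-alpha, which is resynthesised after NF-kappaB activation and ends the response. It held 50.5, 63.3 and 56.9 CPM in HCC1806 controls and 74.0, 90.3 and 125.6 CPM in depleted libraries. The groups did not overlap, but the depleted libraries spread widely, with replicate 3 far above replicate 1. The log2 fold change was 0.77 (SE 0.16, edgeR adjusted p = 0.0158), and the call was lost without control replicate 1 (0.68, adjusted p = 0.074). In MDA-MB-468 NFKBIA held 29.3, 32.0 and 28.8 CPM in controls and 40.9, 37.2 and 32.2 CPM in depleted libraries, just apart (log2 fold change 0.29, SE 0.16, adjusted p = 1).

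NFKBIB, which encodes IkappaB-beta, was scarce in HCC1806 and abundant in MDA-MB-468. It held 4.25, 5.46 and 4.83 CPM in HCC1806 controls and 7.89, 7.89 and 8.41 CPM after depletion, all above the controls. The log2 fold change was 0.74 (SE 0.15, edgeR adjusted p = 0.0143), and without control replicate 1 it was 0.64 (adjusted p = 0.0602). In MDA-MB-468 the controls held 81.6, 66.8 and 68.9 CPM and the depleted libraries 83.7, 63.7 and 65.6 CPM, which overlapped. The log2 difference there was -0.03 (SE 0.12, adjusted p = 1), and 0.02 when scaled by library size only.

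NFKBIE, which encodes IkappaB-epsilon, held 5.96, 5.06 and 6.10 CPM in HCC1806 controls and 12.2, 11.4 and 12.0 CPM in depleted libraries. The depleted values lay close together, at about the level of the MDA-MB-468 libraries. NFKBIE rose by 1.05 on the log2 scale (SE 0.15, edgeR adjusted p = 0.00121), a call that held without any 1 library. In MDA-MB-468 the controls held 12.7, 10.1 and 11.8 CPM and the depleted libraries 13.9, 11.4 and 13.0 CPM, overlapping (log2 fold change 0.15, SE 0.14, adjusted p = 1).

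BCL3 encodes a nuclear IkappaB-like protein that binds p50 and p52 dimers and can act as a coactivator. Its HCC1806 controls held 10.8, 14.9 and 18.9 CPM and the depleted libraries 21.8, 25.0 and 41.5 CPM. All depleted libraries were above all controls, with depleted replicate 3 far above the rest. The log2 fold change was 0.99 (SE 0.21, edgeR adjusted p = 0.0186). It was 0.65 without depleted replicate 3 (adjusted p = 0.0573), 0.80 without control replicate 1 (adjusted p = 0.0863) and 0.99 without control replicate 2 (adjusted p = 0.0548). In MDA-MB-468 BCL3 held 68.5, 65.6 and 66.2 CPM in controls and 74.2, 59.0 and 70.6 CPM in depleted libraries, which lay on both sides of the controls (log2 fold change 0.03, SE 0.20, adjusted p = 1).

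**Figure D2:**
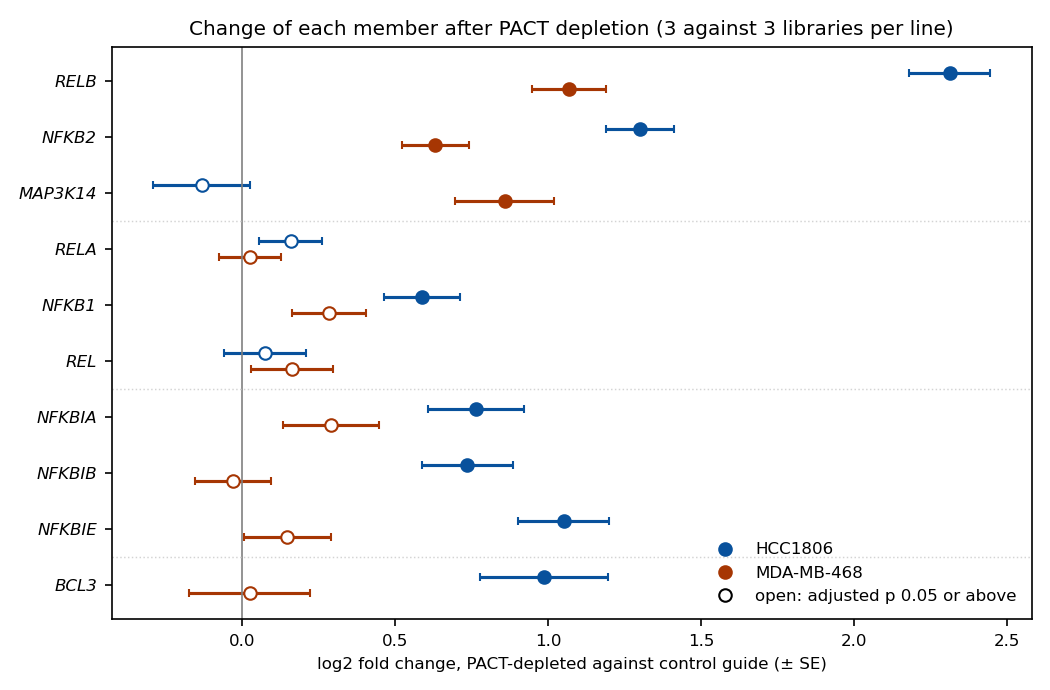
Log2 fold change of each of the 10 genes, depleted against control, with bars of 1 SE, for each of the 2 lines, with filled symbols where the adjusted p was under 0.05. RELB stands highest in both lines, at 2.31 and 1.07, and MAP3K14 is the gene whose MDA-MB-468 value of 0.86 lies furthest above its HCC1806 value of -0.13.

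By the plain reading of library values, depleted and control libraries were fully apart for 7 members in HCC1806, all higher, where 8.51% of genes tested were apart in that direction. In MDA-MB-468 they were apart for 6 members, all higher (RELB, NFKB2, MAP3K14, NFKB1, REL and NFKBIA), where 6.20% of genes were. The spread between replicates differed between the lines: fitted alone, HCC1806 had a biological coefficient of variation of 0.204 and MDA-MB-468 one of 0.0936, and the shared fit had 0.171. With HCC1806 fitted alone, only RELB, NFKB2 and NFKBIE of the 7 passed (edgeR adjusted p = 8.35e-05, 0.0014 and 0.0306), where 0.315% of genes were called. NFKB1, NFKBIA, NFKBIB and BCL3 then had adjusted p of 0.141, 0.16, 0.172 and 0.189. With MDA-MB-468 fitted alone, 4 members passed, RELB, NFKB2, MAP3K14 and NFKB1, where 1.51% of genes were called. In the shared fit 4 members remained called in HCC1806 without its control replicate 1, where 301 of 29204 genes tested were called. RELB alone remained called in MDA-MB-468 without any 1 library of that line except depleted replicate 2. In those refits 19 to 26 of 27296 to 27327 genes tested were called.

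Ratios within a library, which need no scaling between libraries, set the noncanonical against the canonical genes. They are log2 ratios of counts, with no test. RELB to RELA was -4.06 ± 0.155 in HCC1806 controls and -1.91 ± 0.153 in depleted libraries, and -3.02 ± 0.132 and -1.97 ± 0.00643 in MDA-MB-468. The 6 depleted libraries of both lines thus fell into 1 narrow band, -2.08 to -1.78, while the controls of the lines stood apart. NFKB2 to NFKB1 went from 0.58 ± 0.0694 to 1.30 ± 0.0901 in HCC1806 and from -0.52 ± 0.0673 to -0.17 ± 0.0239 in MDA-MB-468, upward in both. MAP3K14 to NFKB1 went in opposite directions, from 0.88 ± 0.231 to 0.15 ± 0.145 in HCC1806 and from -1.58 ± 0.189 to -1.003 ± 0.106 in MDA-MB-468. The fall in HCC1806 lay mostly in the denominator, as NFKB1 rose there by 0.59 on the log2 scale while MAP3K14 stood at -0.13. Control and depleted libraries did not overlap in any of these 6 pairs of groups. How often ratios of other genes were apart was not computed. Of single genes tested, 8.51% in HCC1806 and 6.20% in MDA-MB-468 were apart in the higher direction.

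**Figure D3:**
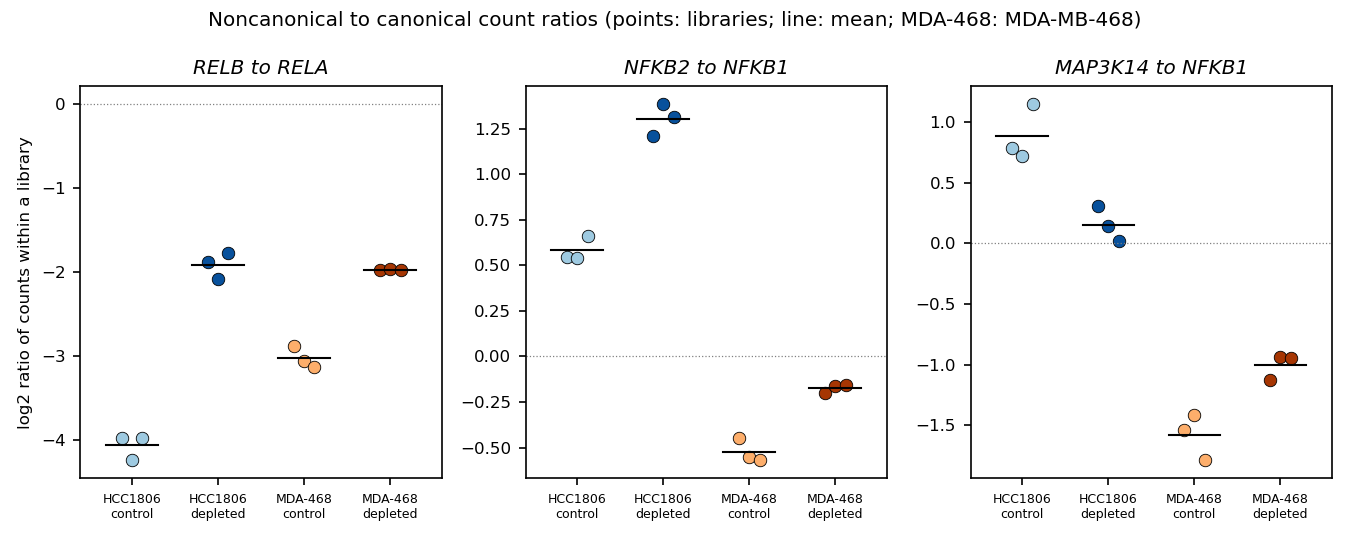
Log2 ratio of counts within each library for RELB to RELA, NFKB2 to NFKB1 and MAP3K14 to NFKB1 (points are libraries, lines are group means; MDA-MB-468 is shortened on the axis). The depleted libraries of both lines meet between -2.08 and -1.78 for RELB to RELA. The lines move in opposite directions for MAP3K14 to NFKB1, where NFKB1 itself rose in HCC1806.

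Whether the change differed between the lines was tested as an interaction, the MDA-MB-468 change minus the HCC1806 change. It passed for 1 member, RELB, where 0.122% of genes tested were called: the rise was smaller in MDA-MB-468 by 1.24 on the log2 scale (SE 0.18, interaction -1.24, edgeR adjusted p = 0.00674). It did not pass for NFKB2 (-0.67, adjusted p = 0.139), NFKBIE (-0.90, adjusted p = 0.129), NFKBIB (-0.77, adjusted p = 0.176), BCL3 (-0.96, adjusted p = 0.287) or NFKBIA (-0.47, adjusted p = 0.585). MAP3K14 had the one large positive difference, 0.99 (SE 0.23, adjusted p = 0.129). With the replicate number as a block, 6 members passed, RELB, NFKB2, MAP3K14, NFKBIB, NFKBIE and BCL3, with adjusted p of 0.000421 to 0.0278, where 1.00% of genes were called. Without HCC1806 depleted replicate 1 they were 3: RELB, MAP3K14 (1.25, adjusted p = 0.0012) and BCL3 (-1.12, adjusted p = 0.0366). In that refit 168 of 29160 genes tested were called.

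The lines also differed in the control libraries, where line and control guide cannot be told apart. All 10 members differed between MDA-MB-468 and HCC1806 controls, 6 higher and 4 lower in MDA-MB-468, but so did 74.2% of all genes tested, 34.2% higher and 40.1% lower. NFKBIB differed most, 14.9-fold higher in MDA-MB-468 (72.4 ± 7.96 against 4.85 ± 0.604 CPM, log2 3.90, SE 0.15, edgeR adjusted p = 2.23e-13). BCL3 was 4.48-fold and RELB 3.06-fold higher there, and NFKBIE 2.02-fold, RELA 1.48-fold and NFKB1 1.34-fold. The NFKB1 difference did not pass with library size only (log2 0.18, adjusted p = 0.134) or with genes of at least 50 counts on average (0.11, adjusted p = 0.353). MAP3K14 was the member furthest below its HCC1806 level, 17.8 ± 1.84 against 73.6 ± 10.7 CPM (log2 -2.05, SE 0.17), followed by NFKBIA (-0.92), REL (-0.76) and NFKB2 (-0.68). The median over all genes tested was -0.26, and -0.51 with library size only, but 0.30 over the 15918 genes with at least 50 counts on average, as all 10 members have. Refitted to those genes alone the median was -0.0111, so the values of the higher members shrink and those of the lower ones grow with that reference.

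The 3 members that stood highest against HCC1806 are the 3 on chromosome 19. Of genes with at least 50 counts on average within 500 kb, the 20 near NFKBIB had a median log2 difference of 2.18, and 1 of them reached that of NFKBIB. The 24 near BCL3 had a median of 1.25 and the 27 near RELB 0.89, 2 sets that share genes. The 6 near NFKB1 on chromosome 4 ranged from -1.19 to 1.53 with a median of 1.32, above NFKB1 itself at 0.42. Whether the region of a gene has a part in these differences was not tested. Over all 15918 genes with that many counts the median was 0.30. SIRT2, which lies on the other strand and shares 40 exon bases with NFKBIB, differed by 2.14. With depletion in HCC1806 the same 3 sets of neighbours had median log2 fold changes of -0.14 (NFKBIB), -0.00286 (BCL3) and 0.03 (RELB).

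Per kilobase of exon, where genes can be compared, the order of levels differed between the lines. In HCC1806 controls NFKBIA (24.0 CPM per kb) and RELA (23.6) led and overlapped, followed by NFKB2 (13.2) and MAP3K14 (12.7), which also overlapped. NFKB1 (6.34), REL (4.81) and BCL3 (4.59) came next, and RELB (2.54), NFKBIE (2.21) and NFKBIB (2.09) were lowest, the last pair overlapping. In MDA-MB-468 controls RELA (34.9) and NFKBIB (31.2) led and overlapped, then came BCL3 (20.6) and NFKBIA (12.7), and NFKB1, NFKB2 and RELB (8.50, 8.26 and 7.76) could not be ordered beyond their spread. NFKBIE (4.46), MAP3K14 (3.08) and REL (2.85) closed that order.

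Depletion moved RELB up the order in both lines. In HCC1806 it went from rank 8 to rank 4, at 12.6 CPM per kb and overlapping MAP3K14 (11.6) and BCL3 (9.07). In MDA-MB-468 it went from rank 7 to rank 4, at 16.3 CPM per kb and overlapping NFKBIA (15.5) and BCL3 (21.0). With the length of the longest transcript in place of all exons, RELB went to rank 5 in MDA-MB-468. NFKB2 reached 32.6 CPM per kb in depleted HCC1806 libraries, above RELA (26.4) and overlapping NFKBIA (40.7), while with the longest transcript RELA stood above NFKB2.

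**Figure D4:**
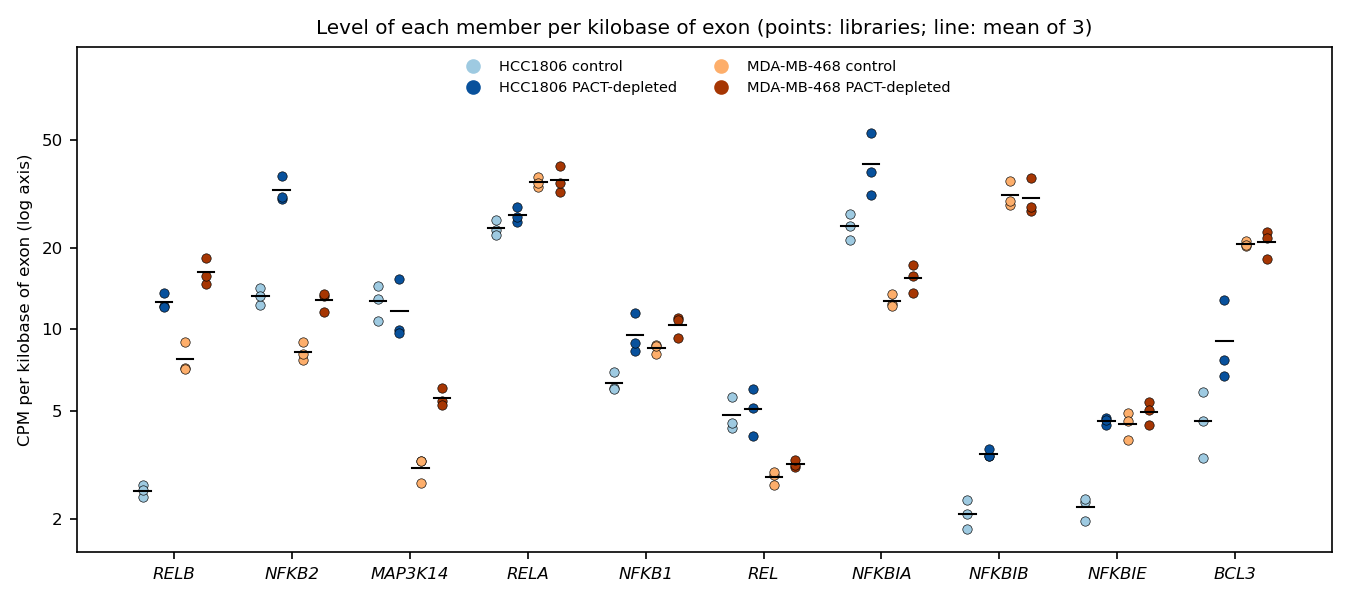
TMM-scaled CPM per kilobase of exon of the 10 genes in each of the 4 groups (points are libraries, log axis). RELB lies at 2.54 and 12.6 in HCC1806 controls and depleted libraries and at 7.76 and 16.3 in MDA-MB-468, and NFKBIB at 2.09 in HCC1806 controls and 31.2 in MDA-MB-468 controls.

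Of 65 other genes of the pathway 62 were tested. With a median log2 fold change of 0.11, 9 of them rose and 2 fell in HCC1806, and 2 rose in MDA-MB-468 and none fell, with a median of 0.03. The 2 that fell in HCC1806 were TNFRSF1A and PRKRA, which is the gene targeted by the guide. With HCC1806 fitted alone, TRAF3, IKBKE, TNIP1 and TNFRSF1A did not pass (edgeR adjusted p = 0.0728, 0.0783, 0.147 and 0.294). The other 7 did, PRKRA among them. Over all genes tested, the shared fit called 1.16% higher and 1.32% lower in HCC1806, and 0.170% higher in MDA-MB-468. Among the regulators that hold NIK low, 2 of 7 rose in HCC1806 and none passed in MDA-MB-468, where BIRC3 missed narrowly. BIRC3, which encodes the ligase cIAP2, went from 7.24 ± 1.39 to 32.7 ± 2.40 CPM in HCC1806 (log2 2.18, SE 0.14, edgeR adjusted p = 8.21e-08). In MDA-MB-468 it stood at 24.5 ± 1.23 and 37.5 ± 1.83 CPM (0.62, adjusted p = 0.0553), with the groups fully apart. That call was made under 6 of 7 other settings. BIRC3 had adjusted p = 1.96e-05 with the line alone, 0.0184 with the replicate block and 0.00124 with DESeq2. The value was 0.0398 with library size only, 0.00552 with no filter and 0.0402 at a mean of 50 counts. With 1 library left out, 5 of 12 fits made the call, each lacking an HCC1806 library. No fit lacking an MDA-MB-468 library made it, and adjusted p over the 12 fits was 0.0095 to 0.322. The interaction of BIRC3 passed (-1.56, adjusted p = 0.00169). TRAF3, the adaptor that recruits NIK for degradation, rose in HCC1806 (0.65, adjusted p = 0.0174; 0.0633 without control replicate 2) and had a log2 fold change of 0.24 in MDA-MB-468 (adjusted p = 1).

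The negative feedback genes were the group with most changes, with 4 of 10 rising in HCC1806 and 1 in MDA-MB-468. Of all genes tested, 1.16% and 0.170% were called higher in these lines. TNFAIP3 encodes A20, a ubiquitin-editing enzyme that shuts off canonical signalling, and it rose in both lines. Its HCC1806 controls held 57.4, 37.2 and 34.3 CPM and the depleted libraries 259.6, 116.6 and 104.5 CPM, and in MDA-MB-468 it went from 6.41 ± 0.454 to 18.6 ± 1.70 CPM. The log2 fold changes were 1.90 (edgeR adjusted p = 0.000952) and 1.54 (adjusted p = 0.0275). Depleted replicate 1 of HCC1806 carried much of the first, which was 1.36 without it (adjusted p = 1.76e-05), and the second lost its call without any 1 library of that line (adjusted p 0.0653 to 0.208). TRAF1, an adaptor known as an NF-kappaB target, rose by 2.04 in HCC1806 (adjusted p = 0.00101) and stood at -0.01 in MDA-MB-468. The interaction of TRAF1 did not pass (-2.05, adjusted p = 0.0503). It passed under 4 of 6 other settings and in 2 of 12 fits with 1 library left out. CYLD, a deubiquitinase, rose by 1.05 in HCC1806 (adjusted p = 0.000311) and did not pass in MDA-MB-468 (0.24, adjusted p = 0.972). TNIP1, an A20-binding protein gene, rose by 0.51 in HCC1806 (adjusted p = 0.0273) and did not pass in MDA-MB-468 (0.15). The HCC1806 call of TNIP1 was lost without HCC1806 control replicate 2 or 3 or MDA-MB-468 control replicate 2 (adjusted p 0.05 to 0.0778).

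In canonical signalling from TNF and interleukin-1 or Toll-like receptors, 2 of 19 rose and 1 fell in HCC1806, and 1 rose in MDA-MB-468. The shares over all genes tested were 1.16% higher and 1.32% lower in HCC1806, and 0.170% higher in MDA-MB-468. IKBKE, an IKK-related kinase gene, rose in both lines, by 0.64 on the log2 scale in HCC1806 (edgeR adjusted p = 0.00645) and by 0.66 in MDA-MB-468 (adjusted p = 0.0164). The MDA-MB-468 call was lost without any control of that line or depleted replicate 1 or 3 (adjusted p 0.0918 to 0.151). IRAK2, a kinase of the interleukin-1 receptor pathway, rose in HCC1806 (1.24, adjusted p = 0.00892; 0.0526 without depleted replicate 2) and was under 1 CPM in every MDA-MB-468 library. TNFRSF1A, the main TNF receptor gene, fell by 0.33 on the log2 scale in HCC1806 (adjusted p = 0.0441), a call kept in 1 of 12 leave-one-out fits (adjusted p 0.0397 to 0.0948).

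No gene of the IKK complex and IkappaB ubiquitin ligase (5 tested), of the other IkappaB-like proteins (4 tested), or of the noncanonical receptors and ligands (11 tested of 13) passed in either line in the shared fit. With MDA-MB-468 fitted alone LTA, a ligand of the lymphotoxin receptor pathway, passed (adjusted p = 0.0111; 0.223 in the shared fit), at 0.112, 0 and 0 CPM in controls and 0.599, 0.391 and 0.738 CPM in depleted libraries. Of the 6 genes of PKR and the RNA sensors, RIGI, the sensor listed in the table as DDX58, rose in HCC1806 (0.77, edgeR adjusted p = 0.00408) and stood at -0.20 in MDA-MB-468. PRKRA fell by 1.07 in HCC1806. EIF2AK2, which encodes PKR, did not pass in HCC1806 (-0.39, adjusted p = 0.0664).

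**Figure D5:**
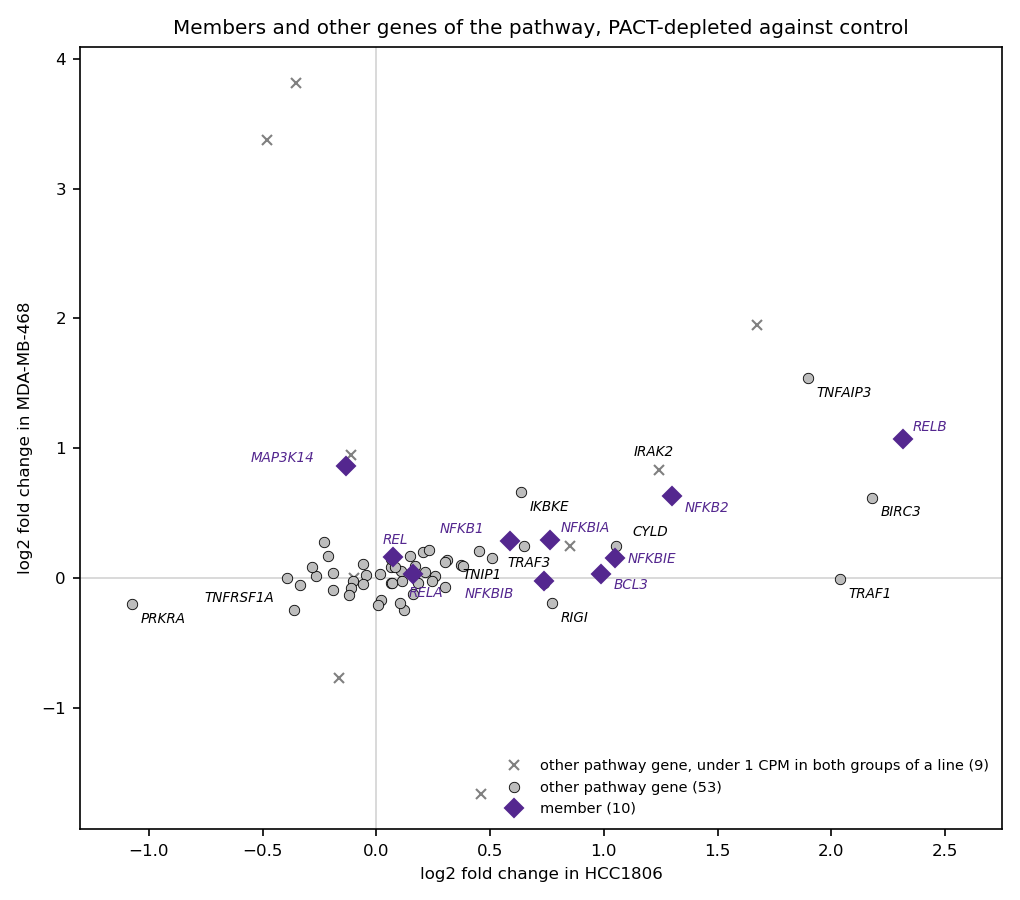
Log2 fold change in HCC1806 (horizontal) and in MDA-MB-468 (vertical) of the 10 members (diamonds) and of 62 other pathway genes, of which crosses mark the 9 under 1 CPM in both groups of a line. RELB, BIRC3 and TNFAIP3 lie far to the right and above 0, TRAF1 lies as far right at -0.01 in MDA-MB-468, and MAP3K14 lies above 0 and left of it.

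The genes whose pattern over the 12 libraries was most like that of RELB, NFKB2 and NFKB1 were sought among 15917 others with at least 50 counts on average. The measure was the root mean square difference of log2 CPM, each gene centred on its own mean. For RELB they were BIRC3 (0.249), ATF3 (0.378), DUSP8 (0.391), CHAC1 (0.445) and SESN2 (0.470), where the median over all candidates was 1.11. ATF3, a stress-induced transcription factor gene, went from 7.57 ± 1.25 to 44.4 ± 4.71 CPM in HCC1806 and stood at 29.5 ± 0.350 and 91.2 ± 12.9 CPM in the MDA-MB-468 groups. In MDA-MB-468 DUSP8, CHAC1 and SESN2 did not pass (log2 fold changes 0.18, 0.38 and 0.49, edgeR adjusted p = 1, 0.975 and 0.0848), and the measure also counts the difference between the lines. The nearest genes to NFKB2 were KLF10 (0.174), PPP1R15A (0.253), DDIT3 (0.267), TRAF3 (0.293) and DAPP1 (0.297), against a median of 1.00. Among them KLF10 and DDIT3 did not pass in MDA-MB-468 (log2 fold changes 0.645 and 0.66, edgeR adjusted p = 0.119 and 0.0611). TRAF3 and DAPP1 did not pass there either (0.24 and 0.27). PPP1R15A encodes the phosphatase subunit GADD34 and DDIT3 the transcription factor CHOP. PPP1R15A held 123.0 ± 16.3 and 318.4 ± 9.57 CPM in HCC1806 and 55.0 ± 7.37 and 126.5 ± 15.0 CPM in MDA-MB-468. For NFKB1 the nearest genes included GTPBP2 (0.117), ERRFI1 (0.128), CDC42EP3 (0.134) and IWS1 (0.135), against a median of 0.61. None of these passed in MDA-MB-468. CDC42EP3 and IWS1 did not pass in HCC1806 either (edgeR adjusted p = 0.185 and 0.0698). RELB and NFKB2 were not among the 5 nearest to each other or to NFKB1. Their MDA-MB-468 controls differed from HCC1806 controls in opposite directions, by 1.61 for RELB and -0.68 for NFKB2 on the log2 scale. As the measure includes that difference, it cannot tell whether these genes changed together with depletion.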

How the data were processed

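RNA of the 12 libraries was depleted of rRNA, per the labels. The deposited values are raw counts per Ensembl gene, which the authors did not normalize. Trimmomatic 0.36, STAR 2.5.2b, featureCounts, Subread 1.5.2 and GRCh38 are named in the submitters' processing notes; their settings, the strand setting and the annotation release are not given in the sources used here. Rows with an Ensembl ID but no name (485) held 0.0284% of counts.

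Counts were tested with edgeR 4.0.16 in R 4.3.3: filterByExpr by group (27029 genes of 44375 with a count), TMM scaling, and 1 quasi-likelihood model over the 4 groups, two-sided, with Benjamini-Hochberg adjustment over all genes tested. The tests within each line were tried on simulated counts, with 1 spread per gene shared by both lines and no pairing of libraries. The interaction, the comparison of controls and the ratios were not simulated. CPM are TMM-scaled; SE is the absolute log2 fold change divided by the square root of F. Within-library ratios added 0.5 counts to each gene; levels per kilobase used the exon union of GENCODE 29. Python 3.11.15 with pandas 2.3.3 and matplotlib 3.10.9 handled sequences and figures.

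The genes named are the members, PRKRA, the genes of each pathway list past the threshold in a line or the interaction (at most 6 per list and line), and the 5 nearest genes to RELB, NFKB2 and NFKB1 (log2 CPM with prior count 2). Among them 1 gene is not reported here. EIF2AK2 and the markers were named outside this rule, after their values were seen. Alternatives were DESeq2 1.42.0, RLE or library-size scaling, no filter or a mean of 50 counts, each line alone, the replicate block and leaving out each library. Members and lists were chosen with earlier results of these data known. Same-numbered HCC1806 libraries deviated together (correlations 0.479, 0.294 and 0.152 over 15918 genes), although control 2 with depleted 3 reached 0.351. In MDA-MB-468 the same-numbered correlations were lower, at 0.116, 0.075 and 0.106. The main fit paired no libraries in either line, and the replicate block was used only as an alternative.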

Additional observations from a re-analysis of the deposited data

Results flagged for a closer look

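Groups of 3 were not checked for outlying values gene by gene. For 4 genes the change with depletion differed between the lines by the interaction test of edgeR (Benjamini-Hochberg adjusted), each value being the MDA-MB-468 change minus the HCC1806 change on the log2 scale. RELB differed by -1.24 (adjusted p = 0.00674), with 3 of 3 depleted libraries above all controls in each line. BIRC3 differed by -1.56 (adjusted p = 0.00169), also with 3 of 3 above in each line. PRKRA differed by 0.87 (adjusted p = 0.0198), lower in 3 of 3 depleted libraries of HCC1806, and RIGI by -0.969 (adjusted p = 0.0489), higher in 3 of 3 there. The RELB and BIRC3 calls held without any 1 library. PRKRA lost its call without HCC1806 control or depleted replicate 2, any MDA-MB-468 control, or MDA-MB-468 depleted replicate 1 or 3 (adjusted p 0.0535 to 0.0931). RIGI lost it without each single library but HCC1806 depleted replicate 1 (adjusted p 0.0619 to 0.166).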

How the results depend on the processing

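Depth differed between the lines, and groups of 3 limit every call. In HCC1806, 672 genes were called, 1245 with DESeq2, 1351 with no filter, 74 with the line alone, and 301 (without HCC1806 control replicate 1) to 1792 (without HCC1806 depleted replicate 1) with 1 library left out. The members called were 7, 3 with the line alone, and 4 to 7 with 1 library left out. Scaling by library size only moved the median of all genes in HCC1806 to 0.13 and the calls from 314 higher and 358 lower to 647 higher and 146 lower. In MDA-MB-468, 46 genes were called, 113 with DESeq2, 143 with no filter, 323 with the line alone and 19 (without MDA-MB-468 depleted replicate 3) to 98 (without HCC1806 depleted replicate 1) with 1 library left out, with 1 to 3 members called. For the interaction the 33 genes became 178 with DESeq2, 275 with no filter and 9 (without MDA-MB-468 depleted replicate 1) to 168 (without HCC1806 depleted replicate 1); members were 1, and 4, 2 and 5 with DESeq2, library size only and no filter, and 1 to 3. Between controls 20068 genes became 13022 at a mean of at least 50 counts and 18973 to 21248 with 1 library left out, with 10 members called in each of the latter.

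With the replicate number as a block, 1947 genes were called in HCC1806, 102 in MDA-MB-468 and 271 for the interaction, where the members went from 1 to 6; the block changed no member's call within a line. The pairing of MDA-MB-468 rests on the number alone.

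Signs changed only for values that passed no test. With library size only NFKBIB in MDA-MB-468 was 0.0179, TRAF1 0.0432 and the IKBKE interaction -0.0531. TRAF1 in MDA-MB-468 was also 0.0015 at a mean of 50 counts, 0.00748 with the line alone and 3.92e-05 with the block. With 1 library left out, the range was -0.0725 to 0.21 for REL in HCC1806, and in MDA-MB-468 -0.0697 to 0.0983 for RELA, -0.167 to 0.0667 for NFKBIB, -0.0448 to 0.119 for BCL3 and -0.127 to 0.158 for TRAF1. For the interaction it was -0.0347 to 0.248 for REL, -0.75 to 0.0747 for IRAK2, -0.0564 to 0.106 for IKBKE and -0.603 to 0.19 for TNFAIP3. Directions of the 3 ratios held with 1 count added. Of the members' values under other settings 229 kept direction and call, 14 gained a call, 6 lost one and 1 changed sign.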
